A study of Mus musculus with 2 samples.

Results

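Arhgef38, Clic3, Dapl1, Cfc1 and 1700011H14Rik are 5 genes whose signals differed between the RNA pools of both arrays in 1 direction, opposite to that of the uroplakins. They were taken by name, with every probe kept, which gave 7 probes among the 39429 on the array and 5 genes among 29982 with a value. Because they had been chosen on this very contrast, their ratios are given as a description without a test. The RNA came from ureters of E16.5 mouse embryos, the tubes that carry urine from the kidney to the bladder. Each of 2 dual-colour Agilent arrays held 1 pool of Pparg-cKO ureters (Pax2-cre/+; Pparg fl/fl) and 1 pool of control ureters (Pparg fl/?) of the NMRI strain, with female pools on array 1, male pools on array 2 and the dyes exchanged between them. Dye orientation and sex therefore cannot be told apart. Pax2-cre acts in the nephric duct and the ureteric epithelium derived from it, so that the deletion of the loxP-flanked part of Pparg does not involve the mesenchyme of the ureter wall. The stage label of the Pparg-cKO channel reads E14.5 for both arrays, whereas the titles and the dissection protocol read E16.5.

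By the dyes in the labels, the RNA in the red channel of array 1 and in the green channel of array 2 was that of the controls. The gene lists of the study run in the opposite direction. The deposited fold values followed RNA A over RNA B (r = 0.996 and 0.997), while the titles name Pparg-cKO before control, which also opposes the dyes if the first name is the numerator. The pools are therefore called RNA A and RNA B. RNA A was control by the labels and Pparg-cKO by the study's lists, and RNA B was the reverse. No direction between genotypes is stated. Pparg itself, the nuclear receptor targeted in these mice, gave 11295 for RNA A against 7430 for RNA B on array 1, and 12888 against 7872 on array 2. Its log2 ratio averaged 0.66 ± 0.08 (SD, n = 2 arrays; limma adjusted p = 0.613). Its only probe (chr6:115440213-115440272, mm9) was not placed relative to the loxP-flanked part, so that it does not check the labels. The sex labels were borne out. Xist gave 1979.5 and 1651 in the female pools against 3.06 and 2.43 in the male pools, and Ddx3y gave 10.9 and 16.7 against 4794 and 4396.

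PPARG is a ligand-activated transcription factor that pairs with retinoid X receptors and binds direct repeats of a short hexamer. In the urothelium, the stratified epithelium that lines the ureter and bladder, it is known for its role in the differentiation of superficial cells, which carry the uroplakin plaques. The 5 genes have different roles. Arhgef38 encodes a guanine nucleotide exchange factor. Clic3 belongs to the chloride intracellular channel family. Dapl1 encodes a small protein related to death-associated protein and has the synonym EEDA. Cfc1, also called cryptic, encodes an EGF-CFC coreceptor for Nodal ligands that is known for left-right patterning of the embryo. 1700011H14Rik is named ccdc198 in the RefSeq gene table, and its role is not described here.

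The measurements rest on 60-base probes, each printed as 4 spots per array. A sequence is shown for 1 probe each of Arhgef38, Clic3 and Dapl1, chosen because at least 2 of the 3 reading frames are free of stop codons over the whole probe. The Arhgef38 probe lies at chr3:132822797-132822856, the Clic3 probe at chr2:25314169-25314228 and the Dapl1 probe at chr2:59342824-59342883 (mm9, the build named in the file header). An exon annotation of that build was not used here.
Arhgef38, second probe: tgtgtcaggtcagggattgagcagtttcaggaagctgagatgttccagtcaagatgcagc
Clic3: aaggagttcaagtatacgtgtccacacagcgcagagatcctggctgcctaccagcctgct
Dapl1: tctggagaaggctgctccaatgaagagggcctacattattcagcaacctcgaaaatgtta

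None of the 7 probes shared a run of 20 bases with any other probe on the array. The Cfc1 probe lies at chr1:34601097-34601156 and the 1700011H14Rik probe at chr14:49846066-49846125. In the RefSeq gene table Clic3 overlaps Paxx, Cfc1 overlaps Prss40 and the pseudogene Gm28419, and Arhgef38 overlaps the lncRNA Gm52616. No probe under either Gm name had a value. Paxx averaged -0.04 on the log2 scale, from 1515 against 1595 on array 1 and 1822 against 1833 on array 2 (RNA A against RNA B). Prss40 was not well above background.

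Arhgef38 was measured by 3 probes. The brightest (chr3:132775267-132775326) gave a processed signal of 191 for RNA A against 75.9 for RNA B on array 1, and 159 against 54.5 on array 2. Both RNA A values lay above both RNA B values. Such a separation, also given below for other members, was favoured by their choice on this contrast. Its share over all genes was not computed, so that nothing is read from it. The log2 ratio of RNA A over RNA B was 1.33 for the female and 1.54 for the male pools and averaged 1.44 ± 0.15 (SD, n = 2 arrays), which corresponds to 2.70-fold. The second probe, whose sequence is given above, gave 53.5 against 21.3 on array 1 and 48.8 against 19.4 on array 2. Its log2 ratio was 1.33 on both arrays, equal to that of the brightest probe on array 1 and below it on array 2. The third probe (chr3:132796597-132796656) had signals between 3.15 and 6.74 in all 4 pools and was not well above background in the same RNA on both arrays. Its ratios of 0.65 and 0.89 have the same sign but come from signals near background.

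Clic3 gave 197 for RNA A against 107 for RNA B on array 1, and 206 against 88.4 on array 2. Both pools of RNA A were brighter than both pools of RNA B. The log2 ratios were 0.88 and 1.22 and averaged 1.05 ± 0.24 (SD, n = 2 arrays) or 2.07-fold. The 4 spots of array 1 ranged from 0.78 to 1.04 and those of array 2 from 0.99 to 1.32, so that the arrays overlapped at the level of single spots.

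Dapl1 was read by a single probe, at 651 for RNA A against 237 for RNA B in the female pools and 511 against 228 in the male pools. The 4 pools fell into separate levels without overlap between RNA A and RNA B. Its log2 ratio was 1.46 for the female and 1.17 for the male pools and averaged 1.31 ± 0.20 (SD, n = 2 arrays) or 2.48-fold. The spot ratios had an SD of 0.02 on array 1 and 0.04 on array 2. The difference between the arrays was thus larger than the spread between spots.

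For Cfc1 the signals were 309.7 (RNA A) against 194 (RNA B) on array 1, and 431 against 203 on array 2. Here the RNA B pools were close to each other, whereas RNA A was brighter on the male array than on the female array. The log2 ratios of 0.68 and 1.09 gave a mean of 0.88 ± 0.29 (SD, n = 2 arrays) or 1.84-fold, the lowest of the 5 members. The spots ranged from 0.61 to 0.75 on array 1 and from 1.06 to 1.14 on array 2.

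For 1700011H14Rik they were 196 against 59.0 on array 1, and 111 against 49.0 on array 2. In contrast to Cfc1, its RNA A signal was higher on the female array. The log2 ratios were 1.73 and 1.18 and averaged 1.46 ± 0.39 (SD, n = 2 arrays) or 2.75-fold. This was the highest mean ratio and the widest spread between arrays among the 5 members.

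**Figure D1:**
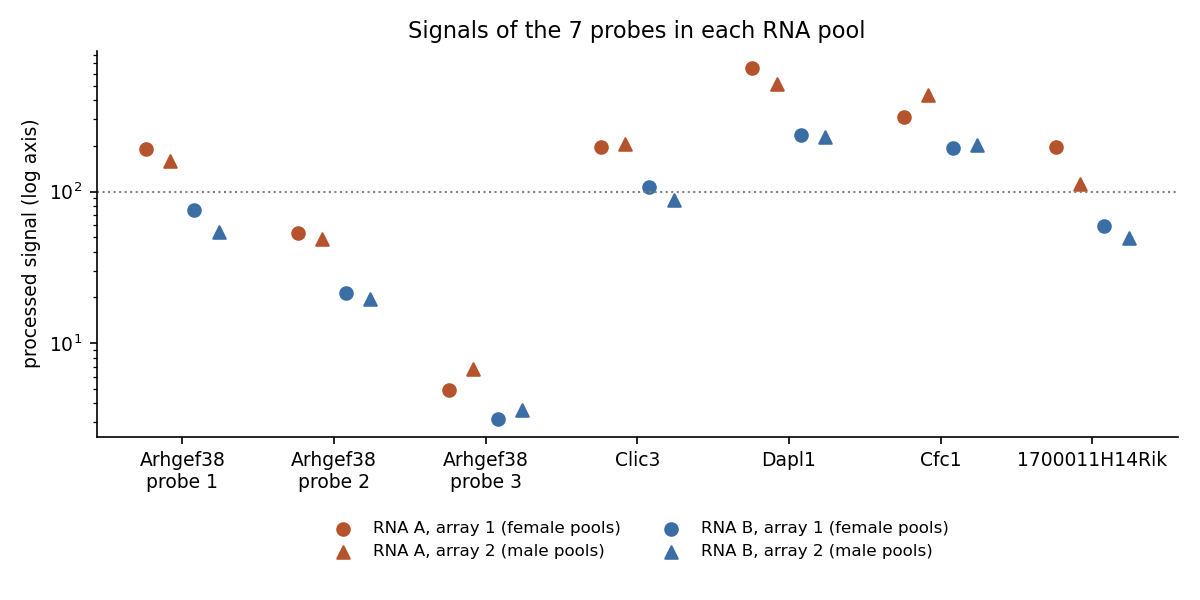
Processed signal (log axis) of the 7 probes in each RNA pool, with circles for array 1 (female pools), triangles for array 2 (male pools), and a dotted line at a signal of 100. For every probe both RNA A points lie above both RNA B points, and the third Arhgef38 probe lies below 10 throughout. The members were chosen on this contrast, and the share of all genes separated in this way was not computed.

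**Figure D2:**
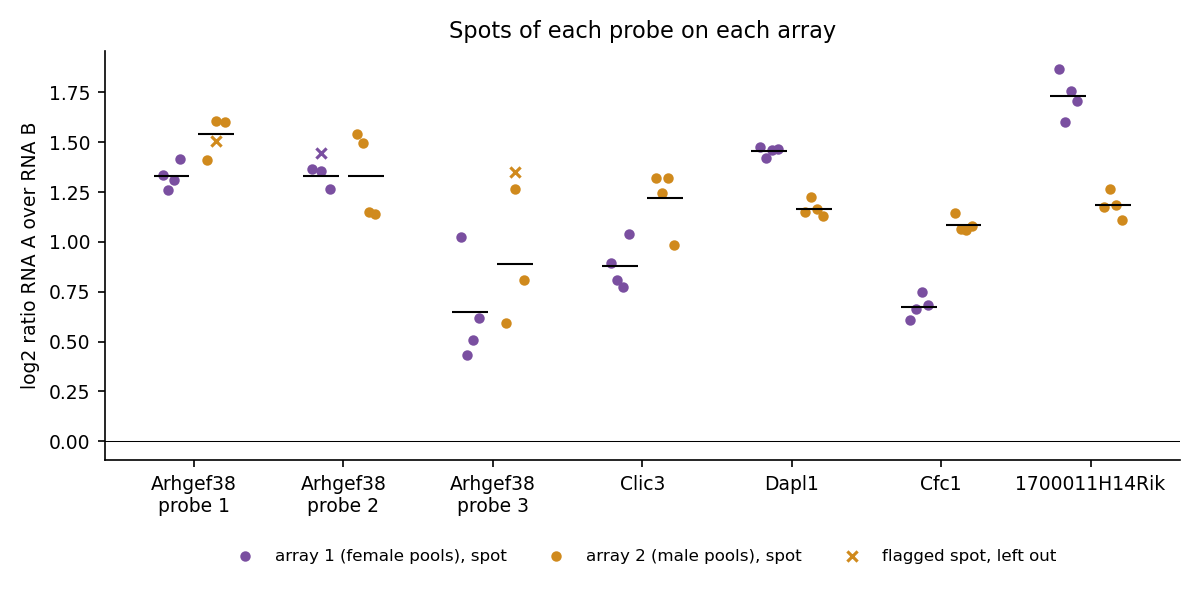
Log2 ratio of RNA A over RNA B for each spot of the 7 probes on each array, with black lines at the mean of the unflagged spots and crosses for flagged spots that were left out. The spots of Dapl1, Cfc1 and 1700011H14Rik separate by array. Those of Clic3 and of every Arhgef38 probe overlap, though barely for the brightest Arhgef38 probe.

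All 5 members had a probe well above background in the same RNA of each array, and all 5 passed the threshold of the study's methods as applied here (a change of 1.5-fold or more the same way on each array, and 100 or more in the brighter RNA). Of 29982 genes, 47 passed in this direction (0.157%) and 69 in the other (0.23%). Since the members were taken from such genes, nothing is read from their count. Of the 5 members, 2 (Dapl1 and Cfc1) had a signal of 100 or more in both RNAs of both arrays, and 3 (Arhgef38, Dapl1 and 1700011H14Rik) passed 2-fold on both arrays. Among the 21435 genes above background, ordered by mean log2 ratio, 1700011H14Rik ranked 14, Arhgef38 16, Dapl1 26, Clic3 62 and Cfc1 90. The median log2 ratio of the members was 1.33 on array 1 and 1.18 on array 2, beside a median of 0.0067 for the mean ratio of all genes tested. The ranks and the members' medians rest on the ratio by which the members were chosen, so that nothing is read from them either.

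Arhgef38, Clic3 and Cfc1 had the higher ratio on the male array, by 0.21, 0.34 and 0.41 on the log2 scale. Dapl1 and 1700011H14Rik had the higher ratio on the female array, by 0.29 and 0.55. Over all genes tested the same difference had an SD of 0.50 and a median size of 0.29. A larger difference than that of 1700011H14Rik was found for 23.0% of genes, and for the other members the share lay between 35.4% and 62.5%. With 1 array per sex these differences could not be tested. Across all genes tested, the ratios of array 1 and array 2 were related by a correlation of -0.05 (Pearson) and a rank correlation of -0.25 (Spearman), as a description across genes, which are not independent replicates.

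**Figure D3:**
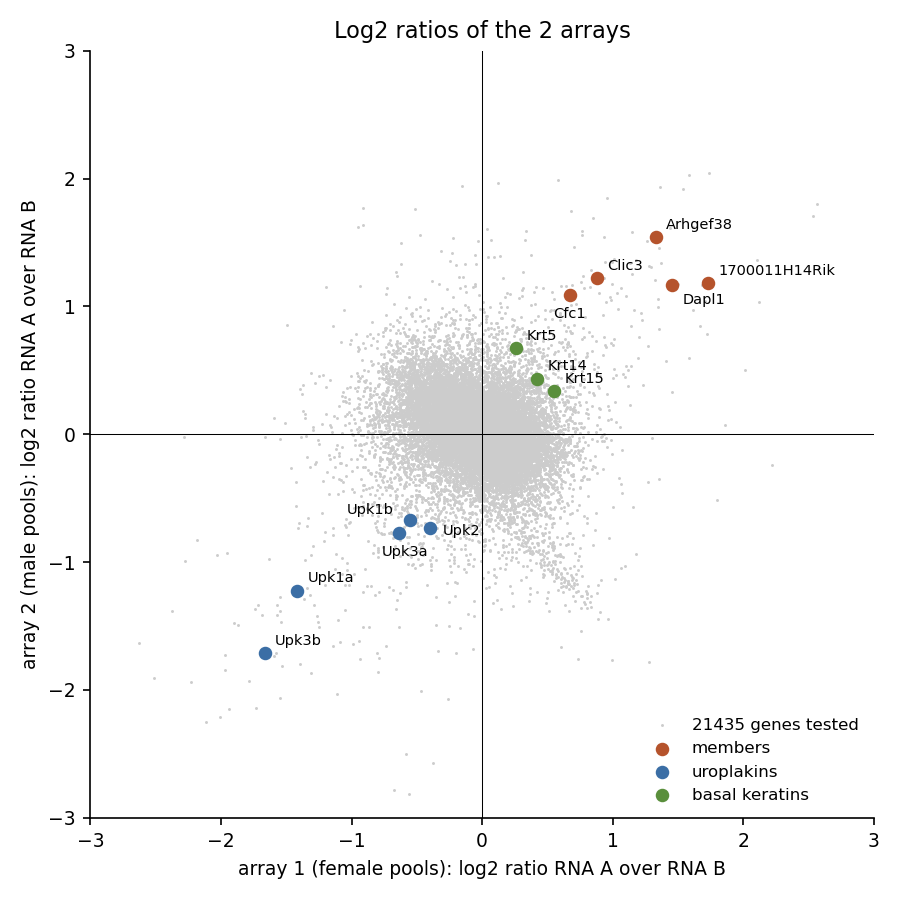
Log2 ratio of RNA A over RNA B on array 1 (female pools, horizontal) against array 2 (male pools, vertical) for 21435 genes (grey), the members (red), the uroplakins (blue) and the basal keratins (green). The members, which were chosen on these ratios, lie in the upper right and the uroplakins in the lower left quadrant. The grey cloud slopes downward. Of the genes tested, 8 lie outside the axis range.

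The genes nearest to each member in this plane, among 15003 genes that reached a signal of 100 in the brighter RNA of each array, were identified by their distance in log2 units. For Arhgef38 they were the predicted transcripts ENSMUST00000177969 (distance 0.01) and ENSMUST00000099046 (0.08). For Clic3 they were Rnf186 (0.06), a RING finger gene, and Vgll1 (0.09), a cofactor of TEAD transcription factors. For Dapl1 they were Cpa3 (0.04), a mast cell protease gene, and Gabrp (0.14), a GABA receptor subunit gene. Spink8 (0.08) and Sfta2 (0.13) were nearest to Cfc1. For 1700011H14Rik they were Mup18 (0.05) and Mup17 (0.14), which encode major urinary proteins and belong to a family of near-identical copies. This likeness was computed over 2 arrays only.

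The uroplakins, the membrane proteins of superficial cells, had negative log2 ratios for 5 of 5 genes on both arrays. Upk3b gave 225 for RNA A against 713 for RNA B in the female pools and 228 against 747 in the male pools, and its log2 ratio averaged -1.69 ± 0.03 (SD, n = 2 arrays; limma adjusted p = 0.0199). Upk1a gave 4545 against 12126 and 4915 against 11472, averaging -1.32 ± 0.14 (limma adjusted p = 0.0446). These 2 genes were called, and Upk3a (-0.70, adjusted p = 0.513), Upk1b (-0.61, 0.725) and Upk2 (-0.57, 0.97) were not. The median of the 5 was -0.70. The basal keratins Krt5, Krt14 and Krt15, intermediate filament genes of basal cells, had mean log2 ratios of 0.47, 0.43 and 0.44. None was called (limma adjusted p = 1.0 each), and at unadjusted p under 0.05 the count was also 0.

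Of the 21435 genes tested, 360 had the higher signal in RNA A and 451 in RNA B at unadjusted p under 0.05 by limma. After adjustment across all genes, limma called 27 genes with the higher signal in RNA A (0.126%) and 40 with the higher signal in RNA B (0.187%). These calls depended on how probes above background were chosen. When a probe needed only to be well above background in either RNA of each array, rather than in the same RNA on both, limma called 1 gene and 0 genes. Upk3b kept its call in 7 of 13 alternative settings and Upk1a in 6 of 13, with adjusted p-values from 0.00825 to 1.0 and from 0.0172 to 1.0. No result on the members rests on these calls.

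Relatives of Clic3, Dapl1 and Cfc1 were examined next, beside all genes tested, of which 21.6% had positive and 17.4% negative ratios on both arrays. The other chloride intracellular channel genes were Clic1 (mean log2 ratio 0.07), Clic4 (-0.06), Clic5 (0.24) and Clic6 (0.28). Clic1 and Clic5 had positive ratios on both arrays, and Clic4 and Clic6 had opposite signs. Their median of 0.16 compares with 1.05 for Clic3, which was chosen on this ratio. None of the 4 was called by limma or had an unadjusted p under 0.05. Dap, the relative of Dapl1, gave 3136 against 3236 and 3880 against 3632 (RNA A against RNA B, array 1 then array 2), and its log2 ratio averaged 0.03.

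In the Nodal pathway around Cfc1, 14 of 16 genes were above background. The coreceptor Tdgf1, the closest relative of Cfc1, gave 369.9 for RNA A against 389.9 for RNA B in the female pools and 463 against 532 in the male pools, and its log2 ratio averaged -0.14 ± 0.09 (SD, n = 2 arrays). The ligand Nodal was dim, between 34.4 and 40.5, with a mean log2 ratio of 0.13. Of the 14 genes, 3 had positive and 2 had negative log2 ratios on both arrays, and 9 went opposite ways. The highest was the inhibitor Dand5 with 0.22 and the lowest the receptor gene Acvr1b with -0.31. The median was -0.04, and limma called 0 genes in either direction, with 0 and 0 at unadjusted p under 0.05.

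The 20 protein-coding neighbours of the members, 2 on each side, were examined likewise, and 16 were above background. Only Ccdc148, the second gene before Dapl1, passed the threshold, and it did so in the opposite direction to Dapl1. It gave 71.0 for RNA A against 163 for RNA B in the female pools and 81.8 against 186 in the male pools, and averaged -1.19 on the log2 scale (limma adjusted p = 0.0655). Pkp4, which lies between Ccdc148 and Dapl1, had a mean log2 ratio of -0.09, and Tanc1 and Wdsub1 on the other side had -0.19 and -0.02. Ints12 and Gstcd beside Arhgef38 had 0.17 and 0.07, and Ppa2 and Tet2 had -0.05 and -0.20. Abca2 and Ptgds beside Clic3 had -0.39 and -0.32, and Lcn12 had -0.01. Ptpn18 and Arhgef4 beside Cfc1 had 0.29 and -0.07, and Ap5m1, Naa30 and Armh4 beside 1700011H14Rik had 0.02, 0.0007 and 0.04. Fut7, Prss39, Amer3 and Slc35f4 were not above background. By limma 0 of the 16 were called in either direction, with 0 and 1 at unadjusted p under 0.05, and their median was -0.03.

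**Figure D4:**
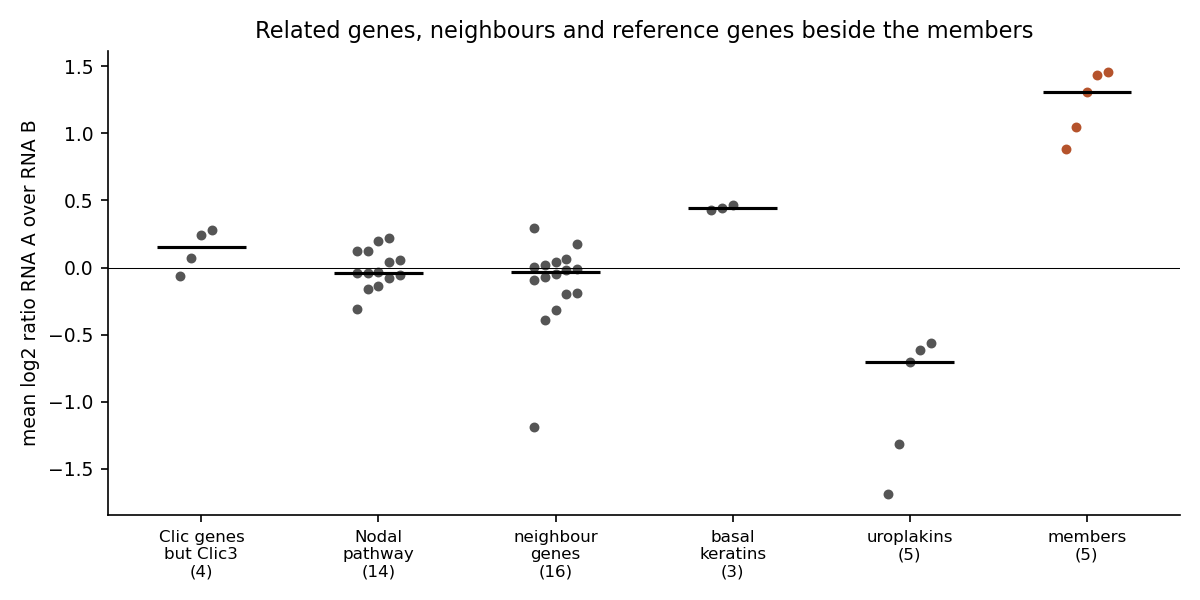
Mean log2 ratio of RNA A over RNA B (mean of 2 arrays) for each gene above background in the related families, among the neighbour genes, the basal keratins and the uroplakins, and for the members (red), with black lines at the medians and the number of genes in brackets. The families and neighbours centre near 0, with medians from -0.04 to 0.16. The uroplakins lie below and the members, which were chosen on this ratio, above.

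The promoters of the members were searched because PPARG acts through DNA binding. RefSeq promoters (GRCm38.p6, 250 bases before to 50 after the gene start) were found for all 5 members, with 2 entries for Arhgef38. The receptor hexamer AGGTCA, on either strand, was found in the promoter of 1 member, Arhgef38, and in 16.3% of the 32851 promoters in the table. Its direct repeat spaced by 1 base, AGGTCANAGGTCA, which contains the hexamer, was found in 0 member promoters and in 0.0396% of all. The grainyhead core AACCGG was found in none (6.83% of all), GATA in 2 members (Cfc1 and 1700011H14Rik; 57.9% of all) and the E-box CANNTG in 3 members (Arhgef38, Clic3 and Dapl1; 72.3% of all). The letters TATAAA, searched after the promoters had been seen, were found in Arhgef38 and Dapl1 (13.6% of all). The 250 bases before the start are shown for these 2 genes, with the hexamer (as TGACCT, its reverse complement) and TATAAA in capitals. They lie at chr3:133234950-133235199 on the minus strand and at chr2:59484403-59484652 on the plus strand.
Arhgef38: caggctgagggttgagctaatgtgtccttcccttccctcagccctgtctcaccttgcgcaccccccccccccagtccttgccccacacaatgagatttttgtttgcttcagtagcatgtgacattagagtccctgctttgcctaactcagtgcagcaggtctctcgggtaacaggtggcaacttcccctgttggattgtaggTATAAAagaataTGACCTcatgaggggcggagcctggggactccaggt
Dapl1: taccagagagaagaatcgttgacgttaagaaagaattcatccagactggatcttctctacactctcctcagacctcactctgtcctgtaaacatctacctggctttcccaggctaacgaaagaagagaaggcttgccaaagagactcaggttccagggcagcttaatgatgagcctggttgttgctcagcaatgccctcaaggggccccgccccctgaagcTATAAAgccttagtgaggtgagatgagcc

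The hexamer of Arhgef38 begins 36 bases and its TATAAA 48 bases before the start shown. From the second annotated start of Arhgef38 the same matches lie 96 and 108 bases away. The TATAAA of Dapl1 begins 29 bases before the start. These are matches of letters in a window and were not tested for binding.

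Markers of the tissue and of other cells were measured beside the members. In whole ureters, fewer cells of a type and less RNA per cell cannot be told apart. Of the markers of the labelled tissue, all 5 uroplakins, 5 smooth muscle genes and 4 genes of ureteric mesenchyme were above background. Smooth muscle markers (Acta2, Myh11, Tagln, Cnn1, Actg2) were brighter in RNA B for 5 of 5 genes on each array. Their log2 ratios had a median of -0.69, and they had a summed signal of 73370 to 77109 for RNA A against 98172 to 128629 for RNA B. By limma 0 were called, and 5 had an unadjusted p under 0.05, beside 451 of all 21435 genes tested in this direction. Pan-epithelial markers had a median of -0.22, with 2 of 7 (Krt8 and Krt18) negative on both arrays and 5 of 7 going opposite ways. Their summed signal was 61004 for RNA A against 89107 for RNA B on array 1, and 78100 against 83460 on array 2. The sums rest largely on Krt8 and Krt18, the brightest of the 7. On array 1 these gave 24148 and 14986 for RNA A against 36566 and 25948 for RNA B. Of the nephron markers 6 of 9 were above background, and Slc34a1, a phosphate transporter of the proximal tubule, was called in RNA B (limma adjusted p = 0.0121) with signals of 6.20 and 4.20 for RNA A against 30.8 and 37.2 for RNA B. In RNA A only 0.25 of its spots on array 1 and 0.67 on array 2 were well above background, so that no exact ratio is given, and the call held in 7 of 13 alternative settings (adjusted p from 0.00608 to 1.0). The 6 nephron markers had a median log2 ratio of -0.40, 4 were negative on both arrays, and 3 had an unadjusted p under 0.05. All 9 summed to 2137 to 2240 for RNA A against 2181 to 3219 for RNA B, of which Wt1 alone gave 1834 and 1751 in RNA A. Liver markers had a median of 0.11 on array 1 and -1.36 on array 2. Red blood cell, endothelial and neural markers had medians of 0.06, 0.08 and 0.14, ureteric mesenchyme -0.02, collecting duct 0.15 (3 of 5 above background), intestine -0.16 (3 of 4) and mesonephric duct derivatives -0.42 (2 of 4). The part of any of these in the members' ratios was not tested.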

How the data were processed

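Total RNA from pools of E16.5 ureters was labelled and hybridised by the authors to 2 dual-colour Agilent arrays. Their scanner software, Feature Extraction 10.7.3.1, produced background-subtracted, dye-normalised (linear and LOWESS) intensities, deposited for each spot, and a log10 ratio, used only to check the dyes. The authors also deposited a table of signed fold values (unit unstated, treated as a score), used as an alternative. It followed RNA A over RNA B with r = 0.996 and 0.997, and its column medians were 1.0.

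Here log2 of the processed intensity was averaged over spots without a feature outlier or manual flag (5705 and 5579 spots left out of 157716). Well above background were 80.3% and 80.4% of green and 70.4% and 70.4% of red spots, and no spot was saturated. A gene was represented by its brightest probe, among probes well above background in the same RNA on both arrays in at least 50% of spots. Of the probes, 39429 in all, names came from RefSeq by accession where possible. limma 3.58.1 (R 4.3.3) was fitted to the ratios with Benjamini-Hochberg adjustment over 21435 genes. The fit was tried on simulated ratios with a smaller spread between arrays than these data, so that this trial does not bear on the calls. With 2 arrays the number of arrays limits the precision, and p-values measure the spread between 2 arrays of different sex and dye.

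The members and lists were chosen with earlier results of these data known. The choice of flags and of the background filter was changed after limma counts under another choice had been seen, and those counts are given in the closing section. Named are the members, Pparg, uroplakins, basal keratins, the 2 nearest genes in ratio to each member, neighbour genes, the extremes and any called gene of each list, all Clic genes, Tdgf1, Nodal, and called markers. Paxx and Prss40, which overlap members, and markers named for their list were added after their values were seen. Some genes of the lists are not reported here.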

Additional observations from a re-analysis of the deposited data

How the results depend on the processing

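The members had been chosen on these same ratios, so that a reversal was unlikely from the start. They kept their direction under every alternative computed for them. Their median log2 ratio of 1.31 was 1.17 with normexp background correction and loess, and 1.18 to 1.33 when 1 array was left out. Arhgef38 fell from 1.44 to 1.20 with normexp and loess, by more than the SD between arrays. The 5 members past the threshold were 2 when a signal of 100 was required in both RNAs and 3 at 2-fold. Over all genes, the 47 and 69 past the threshold were 301 to 321 and 488 to 637 on 1 array alone, 193 and 239 without an intensity threshold and 19 and 29 at 2-fold, and with the signal required in both RNAs the counts were 27 and 48.

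The 27 and 40 limma calls were unstable. They were 1 and 0 with normexp and loess (unadjusted p under 0.05 for 203 and 333 genes), 9 and 24 with loess alone, 0 and 0 with the deposited table (262 and 305), and 0 and 0 without a filter on dim probes (220 and 274). Separate channels with no replicate block gave 1 and 0 (351 and 363), and the median over spots gave 16 and 38. The first processing tried here left out background outlier flags too and accepted either RNA above background, and it called 1 and 0 of 23580 genes (353 and 431). The 2 choices were then replaced after these counts had been seen. Taken singly, the either-RNA filter gave 1 and 0 of 23618 genes (336 and 418) and the wider flags gave 29 and 44 of 21409. Of these 2 choices, the background filter moved the count. The calls on relatives of the members were 0 under all 13 alternatives, several of which called almost no gene. Leaving out 1 array leaves limma no residual degrees of freedom, so that no such fit was run. Dim probes limit what is seen, as for the third Arhgef38 probe.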
